A study of Mus musculus with 12 samples.

Results

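Diazoxide was added to isolated mouse islets at 11 mM glucose, and the islet RNA was compared with that of islets of the same mice at the same glucose without the drug. The libraries are the 2 labelled 11G and the 2 labelled 11G+D, 1 of each from mouse 1 and mouse 2, and they make up 4 of the 12 libraries of the series. They were chosen by these labels and not by any measured value. The islets came from wild-type C57BL/6 mice, and both groups had 4 h at 11 mM glucose, so that diazoxide was the only labelled difference. The labels give neither the drug's dose nor the age or sex of the mice. The other 8 libraries, also 2 mice per group, are wild-type islets at low glucose (2G, labelled untreated, with no concentration or time), wild-type islets with 11 mM glucose and FK506 for 4 h (11G+FK), and C57BL/6 islets carrying channelrhodopsin-2 in their β cells without and with 40 min of light, given in cycles with 5 min off. The driver of channelrhodopsin-2 and the glucose of those islets are not in the labels. Mouse 1 of the wild-type groups and mouse 1 of the channelrhodopsin-2 groups are different animals, since the genotypes differ.

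In a β cell, glucose metabolism raises ATP, which closes the ATP-sensitive potassium channel. The membrane then depolarizes, voltage-gated calcium channels open, and calcium triggers both insulin release and calcium-dependent transcription. Diazoxide holds the potassium channel open, so that the β cell stays hyperpolarized while glucose metabolism goes on. FK506 acts further down, on calcineurin, a phosphatase that calcium and calmodulin activate. Immediate early genes are those that such signals switch on without new protein synthesis, many of them through CREB, a factor that binds the cAMP response element.

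At 11 mM glucose 610 of 16087 genes tested (3.79%) differed with diazoxide at an adjusted p below 0.05 (edgeR's quasi-likelihood test with the mouse as a block and Benjamini-Hochberg adjustment, "called" from here on). Of these 396 (2.46% of the genes tested) were lower and 214 (1.33%) were higher. Immediate early genes such as Npas4 and Fos, the Nr4a nuclear receptors, Lbh and the nuclear RNA Neat1 were among the genes that fell, and Adora2b, Aqp4, Rfx6 and Txnip were among those that rose. The genes called lower took 4.90% and 4.22% of the counts at 11G in mice 1 and 2, 1.92% and 1.89% with diazoxide, and 2.94% and 2.67% at 2G. The genes called higher went from 0.867% and 0.914% of the counts to 1.83% and 1.61%. The direction of both changes was set by choosing the genes from these same 11G and 11G+D libraries. All 610 changed in the same direction in both mice, which a call from 2 mice with the mouse as a block nearly requires. Of all genes tested, 32.3% were lower and 31.9% higher in both mice.

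**Figure D1:**
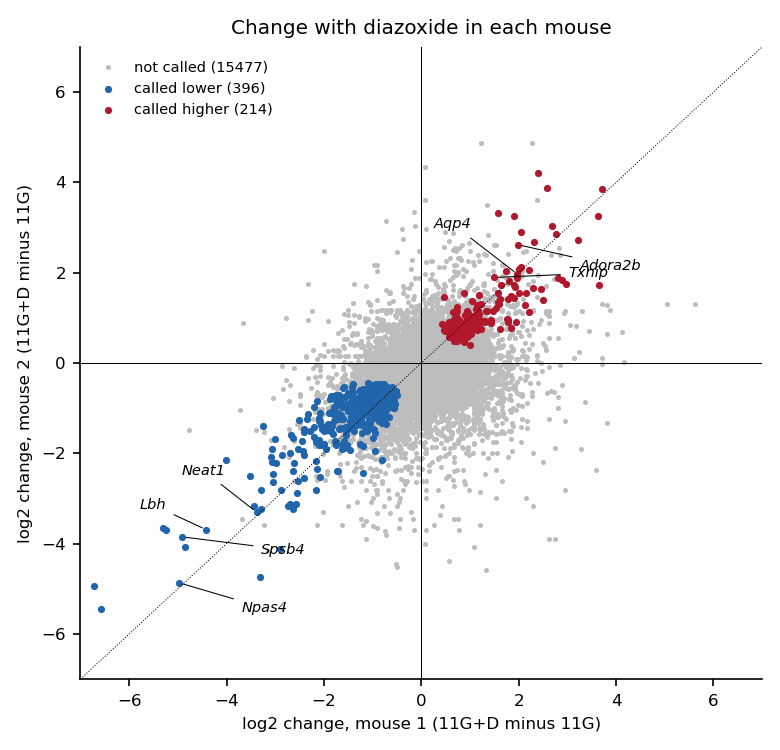
Log2 change with diazoxide (11G+D minus 11G) in mouse 1 on the x axis and in mouse 2 on the y axis, 1 point per gene tested, blue for the 396 called lower, red for the 214 called higher and grey for the rest; the dotted line marks equal change. The points of Npas4, Lbh, Spsb4 and Neat1 lie far down in both mice, and the grey cloud spreads in every direction.

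The promoters of 5 of the genes that fell are shown because 4 of them (Npas4, Fosb, Fos, Nr4a1) are immediate early genes and Lbh was the most abundant gene with a fall of this size. Each is the 250 bases before the gene start in RefSeq (GRCm38.p6), read 5′ to 3′ in the direction of the gene, with TGACG on either strand in capitals (CGTCA where it lies on the other strand), the core of the cAMP response element. They lie at chr19:4989972-4990221 (Npas4, minus strand), chr7:19310046-19310295 (Fosb, minus strand), chr12:85473640-85473889 (Fos, plus strand), chr15:101266596-101266845 (Nr4a1, plus strand) and chr17:72918055-72918304 (Lbh, plus strand).
Npas4: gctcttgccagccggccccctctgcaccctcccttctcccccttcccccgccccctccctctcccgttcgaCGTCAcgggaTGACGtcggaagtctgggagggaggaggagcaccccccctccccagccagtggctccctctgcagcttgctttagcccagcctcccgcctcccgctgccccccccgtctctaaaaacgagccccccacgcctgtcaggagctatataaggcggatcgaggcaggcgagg
Fosb: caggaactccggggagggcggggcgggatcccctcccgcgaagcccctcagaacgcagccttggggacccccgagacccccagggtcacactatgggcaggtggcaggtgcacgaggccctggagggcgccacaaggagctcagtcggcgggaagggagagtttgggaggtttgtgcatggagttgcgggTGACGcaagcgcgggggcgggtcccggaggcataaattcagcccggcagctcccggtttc
Fos: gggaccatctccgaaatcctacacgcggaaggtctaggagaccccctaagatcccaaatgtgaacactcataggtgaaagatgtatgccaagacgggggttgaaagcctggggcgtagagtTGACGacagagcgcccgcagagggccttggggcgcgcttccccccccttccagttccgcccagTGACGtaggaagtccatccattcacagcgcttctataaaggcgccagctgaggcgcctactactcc
Nr4a1: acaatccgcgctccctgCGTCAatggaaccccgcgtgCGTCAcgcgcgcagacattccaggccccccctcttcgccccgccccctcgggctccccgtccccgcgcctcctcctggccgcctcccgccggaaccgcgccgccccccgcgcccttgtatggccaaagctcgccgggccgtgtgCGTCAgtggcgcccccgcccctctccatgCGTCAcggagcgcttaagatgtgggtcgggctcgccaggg
Lbh: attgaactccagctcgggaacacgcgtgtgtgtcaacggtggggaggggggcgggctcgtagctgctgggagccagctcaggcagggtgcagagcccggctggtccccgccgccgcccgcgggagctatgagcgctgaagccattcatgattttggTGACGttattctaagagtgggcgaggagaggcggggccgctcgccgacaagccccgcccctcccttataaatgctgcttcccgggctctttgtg
In the Npas4 promoter 1 copy on each strand lay close together, starting 179 and 169 bases before the gene start. Nr4a1 had 4 copies, the nearest 40 bases before the start, Fos had 2, at 129 and 66 bases, Fosb had 1 at 60 bases and Lbh had 1 at 94 bases. TGACG on either strand occurred in 17.8% of the 32851 promoters in the table, some genes having several. Counted per gene with any promoter in the table, 117 of 291 genes called lower (40.2%), 41 of 160 called higher (25.6%) and 3162 of 10891 tested but not called (29.0%) had it. The median GC content of these windows was 61.6%, 59.6% and 59.6% and the median number of CG pairs was 17, 16 and 15, so base composition moved with the groups and its part in the shares was not tested. The complete palindrome TGACGTCA, which contains TGACG, was in 3.78%, 2.50% and 3.03% of the same genes, and TGANTCA, the site of Fos and Jun dimers, in 7.22%, 7.50% and 5.83%. RefSeq promoters were matched by symbol for 291 of the 396 and 160 of the 214 genes.

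Total counts were 21992513 and 18606190 in the 11G libraries and 18938404 and 17357572 in the 11G+D libraries, and 15196061 to 22892255 over all 12. Islet hormones were abundant, as labelled. Ins2 stood between 83351 and 113728 FPKM (the deposited level per gene length) and Gcg between 6191 and 10864 FPKM in the 4 libraries. Markers of other cells were also present, with acinar markers at 0.0146% and 0.0682% of counts at 11G and 0.0307% and 0.0532% with diazoxide, so that they were higher with diazoxide in mouse 1 and lower in mouse 2. None of 23 acinar, 17 ductal, 20 stellate or 12 alpha cell markers tested was called by edgeR or DESeq2, and 1, 1, 2 and 3 had an unadjusted p below 0.05 by edgeR. Without the 11G+D library of mouse 2, edgeR called 4 stellate markers and 1 alpha cell marker. Of 18 endothelial markers Nostrin fell, of 14 Schwann cell markers Sox10 rose and of 9 markers of delta and PP cells Casr fell. With a library left out Nostrin was called in 0 of 4 fits and Sox10 and Casr in 1 of 4 each. Stellate markers went with the acinar ones, with a median log2 change of 1.06 in mouse 1 and -0.25 in mouse 2; the part of such cells in the results was not tested. In these whole-islet libraries fewer cells of a type and less RNA per cell cannot be told apart.

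The calls rest on 2 mice, and each library was left out in turn. With the 11G library of mouse 1, the 11G+D library of mouse 1, the 11G library of mouse 2 or the 11G+D library of mouse 2 left out, 45, 220, 120 and 765 genes were called. Without the mouse as a block 59 genes were called, 50 lower and 9 higher. Counts of list members under these 4 fits are given below in that order. In all 4 fits 43 genes (0.267% of those tested) kept their call, 40 lower and 3 higher. The 3 higher were Adora2b, Aqp4 and Aacs, which encodes acetoacetyl-CoA synthetase. Among the 40 lower were Npas4, Nr4a1, Nr4a2, Lbh, Neat1, Rgs2, Rem2, Dusp4, Rasd2, Rbm14, Pde5a, Vamp4, Atp2b4, Vipr1 and the kinase genes Stk38l and Wnk4.

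**Figure D2:**
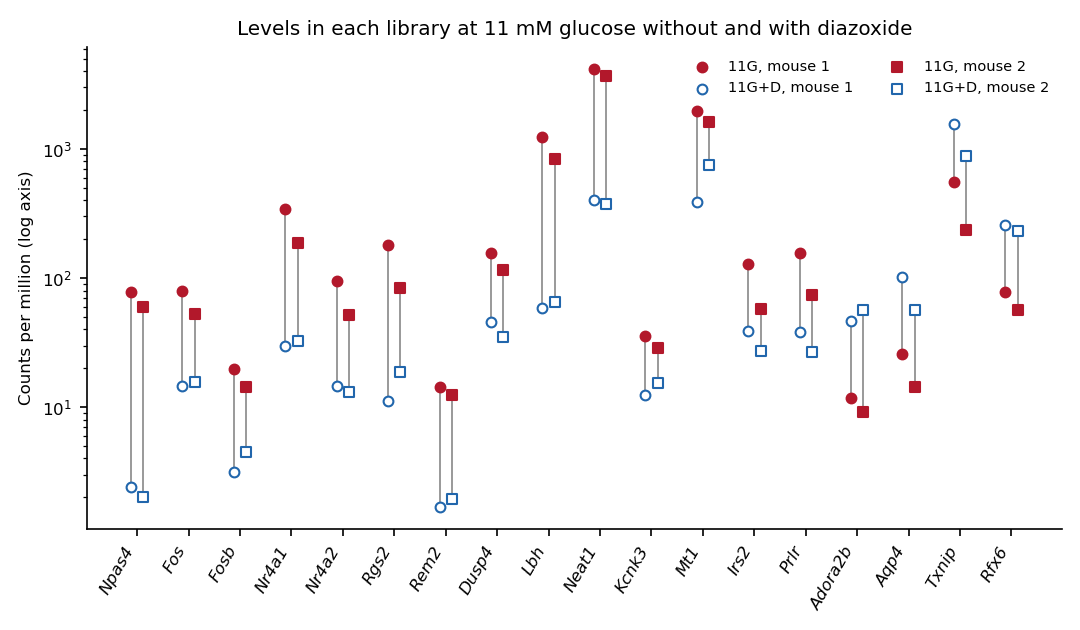
CPM on a log axis in each library for 18 named genes, red filled symbols for 11G and blue open symbols for 11G+D, circles for mouse 1 and squares for mouse 2, with a line joining the 2 libraries of a mouse. In both mice the open symbols lie below the filled ones from Npas4 to Prlr and above them from Adora2b to Rfx6.

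The drug's own target and the cell's other channels were examined first. Kcnj11, the pore subunit of the ATP-sensitive potassium channel, was at 62.3 and 65.6 CPM (counts scaled to library size) at 11G in mice 1 and 2 and at 45.0 and 77.4 CPM with diazoxide. Abcc8, the sulfonylurea receptor subunit that diazoxide binds, was at 873 and 768 CPM and then 985 and 1011 CPM. Neither was called (log2 change -0.06 ± 0.27 SE, adjusted p = 0.934, and 0.29 ± 0.21, adjusted p = 0.516), and the Kcnj11 levels of the groups overlapped. Of 38 potassium channel genes tested 2 fell, 1 rose and the median log2 change was -0.39, against 0.005 over all genes. Kcnk3, a background potassium channel, fell from 35.6 and 28.9 CPM to 12.4 and 15.4 CPM (-1.20 ± 0.22, adjusted p = 0.0174). Kcnn3, a calcium-activated potassium channel, fell by 1.19 on the log2 scale and Kcnh6, a voltage-gated one, rose by 0.84. None of the 3 kept its call without the first 3 of the left-out libraries, and 5 members were called without the last.

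Of 35 genes for calcium channels, pumps and stores only Atp2b4, a plasma membrane calcium pump, was called, and it kept the call in all 4 fits. It stood at 145 and 103 CPM at 11G and at 44.7 and 37.3 CPM with diazoxide (-1.58 ± 0.15, adjusted p = 0.00104), the levels of the groups lying far apart. Cacna1d, which encodes an L-type calcium channel, was at 116 and 84.1 CPM and then 154 and 112 CPM and was not called (0.41 ± 0.24, adjusted p = 0.399). Of 37 sodium, chloride and cation channel genes Hcn4, a pacemaker channel, fell from 44.3 and 21.2 CPM to 10.4 and 8.68 CPM (-1.66 ± 0.33, adjusted p = 0.0250). Its call was lost in the first 3 fits, where it lay between -1.16 and -1.67.

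Calcium reaches transcription through calmodulin, calcineurin and the kinases that act on CREB. Camk2n2, an inhibitor of CaM kinase II, fell by 0.83 on the log2 scale and Nfatc2, a factor that calcineurin brings to the nucleus, rose from 22.4 and 22.7 CPM to 49.4 and 53.7 CPM (1.20 ± 0.19, adjusted p = 0.0107). Of the 38 genes of this list 3 were called, and 0, 1, 1 and 4 were called with a library left out. Of 45 genes of CREB and cyclic nucleotide signalling 3 fell and none rose (7 lower and 3 higher at an unadjusted p below 0.05, 4 and 0 called by DESeq2). Pde5a, which breaks down cGMP, fell from 199 and 134 CPM to 49.99 and 47.4 CPM (-1.73 ± 0.22, adjusted p = 0.00360). Crem, a CREB relative with inducible repressor forms, fell from 92.6 and 63.1 CPM to 25.0 and 29.1 CPM (-1.50 ± 0.20, adjusted p = 0.00465), and Prkar1a, a regulatory subunit of protein kinase A, fell by 0.97 on the log2 scale. Pde5a kept its call in all 4 fits, Crem lost it without the 11G library of mouse 1 (-1.28), and Prkar1a was at -0.63 and not called without the 11G+D library of mouse 1. The kinase gene Sik1 was not called (-0.61 ± 0.16, adjusted p = 0.069), nor was Pde10a (0.25 ± 0.28, adjusted p = 0.693).

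Of 46 immediate early transcription factors tested 9 fell and none rose (15 lower and 0 higher at an unadjusted p below 0.05, 11 and 0 called by DESeq2), and 22 were lower in both mice. Over all genes tested 2.46% were called lower and 32.3% were lower in both mice. Npas4, an activity-induced factor of neurons and β cells on chromosome 19, stood at 77.3 and 60.1 CPM at 11G and at 2.41 and 2.01 CPM with diazoxide. That was a 31.0-fold lower level (log2 change -4.95 ± 0.30, adjusted p = 0.000104), and the groups were far apart in both mice. Nr4a1, an orphan nuclear receptor, stood at 344 and 185 CPM and then at 29.95 and 32.5 CPM (-3.07 ± 0.30, adjusted p = 0.00104), and its relative Nr4a2 at 95.6 and 51.5 CPM and then at 14.7 and 12.99 CPM. Both mice thus ended at nearly the same level of each receptor, although mouse 1 had started higher. Fos stood at 79.6 and 52.4 CPM and then at 14.5 and 15.7 CPM (-2.15 ± 0.40, adjusted p = 0.019), and Fosb at 19.7 and 14.3 CPM and then at 3.15 and 4.49 CPM (-2.17 ± 0.35, adjusted p = 0.00997). Fosl2, of the same family, fell from 338 and 232 CPM to 91.6 and 88.2 CPM, and Csrnp1, Per1 and Nfil3 fell by 1.12, 1.05 and 1.38 on the log2 scale. Egr1, an immediate early zinc finger factor, was at 48.4 and 75.5 CPM and then at 50.3 and 54.7 CPM, with overlapping groups and opposite changes in the mice (-0.19 ± 0.18, adjusted p = 0.638). Members called numbered 3, 4, 9 and 9 with a library left out. Npas4, Nr4a1 and Nr4a2 passed in all 4 fits, while without the 11G library of mouse 1 Fos (-1.56), Fosb (-1.78), Fosl2 (-1.29), Nfil3 (-0.86), Csrnp1 (-0.68) and Per1 (-0.83) were not called. Without the 11G+D library of mouse 1 Fos, Fosb, Nfil3, Csrnp1 and Per1 again were not called, nor was Csrnp1 without that of mouse 2.

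Of 57 immediate early genes that encode signalling proteins and other effectors 12 fell and none rose (21 lower and 4 higher at an unadjusted p below 0.05, 15 and 1 called by DESeq2), and 31 were lower in both mice. The shares over all genes tested were 2.46% called lower and 32.3% lower in both mice. Rgs2, which shortens G protein signalling, fell from 180 and 83.6 CPM to 11.2 and 18.8 CPM (-3.06 ± 0.36, adjusted p = 0.00263). Rem2, a small GTPase known to restrain voltage-gated calcium channels, fell from 14.3 and 12.4 CPM to 1.68 and 1.95 CPM (-2.88 ± 0.28, adjusted p = 0.00104). Neither gene's levels overlapped between the groups, which their selection as called genes favours. Dusp4, a phosphatase of MAP kinases, fell from 157 and 115 CPM to 45.5 and 34.7 CPM (-1.76 ± 0.15, adjusted p = 0.000519) and Rasd2, a Ras-like GTPase, from 55.5 and 49.5 CPM to 19.04 and 16.4 CPM (-1.57 ± 0.14). Both changed by nearly the same amount in each mouse, -1.78 and -1.73 for Dusp4 and -1.54 and -1.59 for Rasd2. Rasgrp1, an activator of Ras, fell by 1.94 on the log2 scale, Dusp14 by 2.00, Rasd1 by 1.31, the factor Etv5 by 1.26, the kinase Plk3 by 1.20, Rgs4 by 1.08, the GTPase Gem by 0.90 and the RNA-binding protein gene Zfp36 by 0.62. In the 4 fits with a library left out 4, 7, 8 and 15 members were called. Rgs2, Rem2, Dusp4 and Rasd2 passed in all 4 fits and Zfp36 in none, and without the 11G library of mouse 1 Rasd1 was at -0.95 and Gem at -0.53, neither called.

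**Figure D3:**
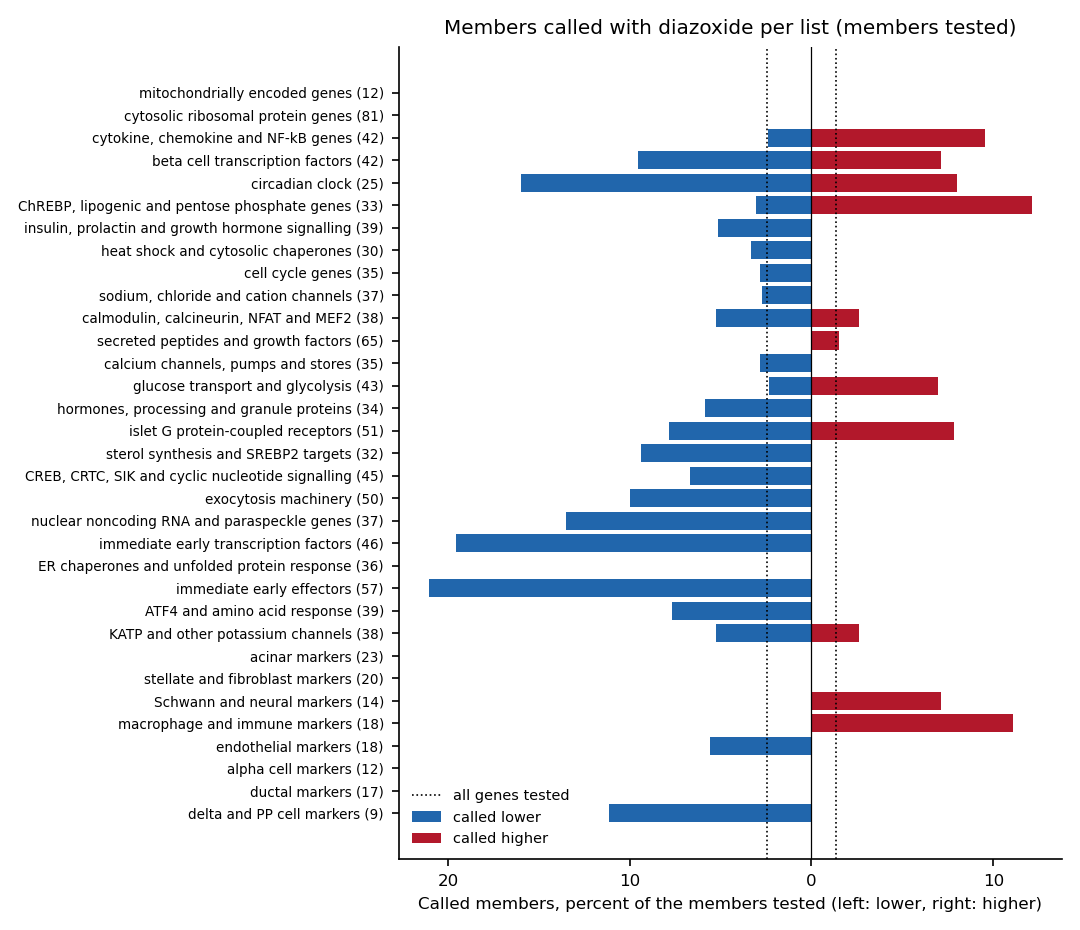
For each of 33 gene lists, the share of its tested members called lower with diazoxide (blue, to the left) and higher (red, to the right), in percent, with the number tested in parentheses; dotted lines mark 2.46% lower and 1.33% higher over all genes tested. The bars to the left are longest for the immediate early effectors (12 of 57) and transcription factors (9 of 46), and neither has a bar to the right.

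Lbh, a transcription cofactor on chromosome 17, fell from 1247 and 840 CPM to 58.2 and 65.0 CPM, a 16.5-fold lower level (-4.04 ± 0.26, adjusted p = 0.000131). In FPKM it went from 377 and 282 to 19.1 and 20.7. Neat1, the nuclear RNA around which paraspeckles form, fell from 4172 and 3695 CPM to 400 and 375 CPM, or 10.1-fold (-3.34 ± 0.22, adjusted p = 0.000135), by -3.38 in mouse 1 and -3.30 in mouse 2. Of 37 genes for nuclear noncoding RNAs and paraspeckle proteins 5 fell and none rose (12 lower and 5 higher at an unadjusted p below 0.05, 5 and 2 called by DESeq2). Rbm14, a paraspeckle protein, fell from 65.7 and 49.9 CPM to 19.8 and 14.7 CPM (-1.74 ± 0.18, adjusted p = 0.00130), Mirg, a noncoding host of microRNAs in the imprinted Dlk1 to Dio3 region, fell by 1.32, the RNA helicase gene Ddx17 by 0.92 and Luc7l3, a splicing factor gene, by 0.73. The fits with a library left out called 2, 5, 3 and 5 members, Neat1 and Rbm14 in every fit. Over all noncoding genes 44 fell and 8 rose of 1223 tested, or 4.25% called, beside 3.86% of 14417 protein-coding genes.

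Other genes with large falls belonged to no list. The smallest adjusted p of the comparison was that of Gm5860, a gene model with no descriptive name (-4.51 ± 0.24, adjusted p = 7.07e-05, mean 17.6 FPKM), and 1700016P03Rik, another, was at -4.56 ± 0.41 (adjusted p = 0.000850, mean 9.88 FPKM). Both were named after their values were seen. Spsb4, of a ubiquitin ligase adaptor family, fell from 20.5 and 19.4 CPM to 0.630 and 1.30 CPM (-4.42 ± 0.42, adjusted p = 0.000986), and Zdhhc22, of the palmitoyltransferase family, from 10.3 and 5.80 CPM to 0.210 and 0.413 CPM. Abhd16b had 339 and 99 counts at 11G and 2 in each diazoxide library, a ratio of 99.7 with an exact 95% interval of 38.7 to 368 that covers counting error only. This gene and Slc6a19os were picked among the 15 largest decreases in these same libraries, which the intervals given for them do not allow for. Abhd16b was at 0.256 and 0.174 CPM at 2G and 0.505 and 0.117 CPM with FK506, so that it passed the low-count filter through the 11G libraries. Slc6a19os, with 94 and 56 counts against 8 and 1 (a ratio of 15.2, interval 7.78 to 33.8), is an antisense gene, and no source states that strand was used in counting. It was not called without the 11G library of mouse 1 (-4.07). Megf9, which encodes a membrane protein with EGF-like domains, fell from 640 and 367 CPM to 76.7 and 79.8 CPM (-2.57 ± 0.31, adjusted p = 0.00301), and Tmem212 from 23.9 and 13.3 CPM to 2.41 and 1.36 CPM. Asb11 fell by 2.94 on the log2 scale, Mettl21b by 2.83 and Usp51 by 2.61, and Usp51 lost its call in 3 fits (-1.80 to -3.26). The kinase gene Stk38l fell from 239 and 135 CPM to 44.6 and 35.2 CPM (-2.19 ± 0.17, adjusted p = 0.000453), Sgms2, a sphingomyelin synthase, from 440 and 235 CPM to 82.4 and 84.8 CPM, Hspb6, a small heat shock protein, from 69.5 and 67.6 CPM to 17.4 and 19.5 CPM, and Wnk4, a kinase that controls ion transport, from 172 and 173 CPM to 59.0 and 65.0 CPM. Nup93, a nuclear pore protein, fell by 1.42 and Bcl2l2, an anti-apoptotic protein, by 1.25 on the log2 scale. These last 6 were named after their values were seen, for keeping their call in all 4 fits.

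Among 51 genes for G protein-coupled receptors of islets 4 fell and 4 rose, and the adenosine receptors went both ways. Adora2b, which raises cAMP when adenosine binds it, rose from 11.7 and 9.09 CPM to 46.3 and 56.2 CPM, or 5.05-fold (2.34 ± 0.24, adjusted p = 0.00126). Adora1, which lowers cAMP, fell from 45.2 and 45.3 CPM to 16.6 and 19.7 CPM (-1.32 ± 0.20, adjusted p = 0.00779), and Adora2a fell from 37.3 and 39.8 CPM to 14.3 and 16.8 CPM (-1.31 ± 0.19, adjusted p = 0.00578). The groups of all 3 were separate, which their selection as called genes favours. Casr, the calcium-sensing receptor, fell by 1.86 on the log2 scale and Vipr1, a receptor for vasoactive intestinal peptide, by 1.49, while Gcgr, the glucagon receptor, rose by 1.25, the galanin receptor Galr2 by 1.92 and the short-chain fatty acid receptor Ffar3 by 1.64. With a library left out 2, 4, 3 and 10 members were called. Adora2b and Vipr1 kept their calls in all 4 fits, Adora1 and Adora2a lost theirs without either 11G library (-1.22 to -1.41), Casr, Galr2 and Gcgr lost theirs in the first 3 fits and Ffar3 in the first 2, and Gcgr was at 0.65 without the 11G+D library of mouse 1.

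Transcripts of the hormones themselves did not pass the test. Ins1 was at 23497 and 18245 CPM at 11G and at 21504 and 23982 CPM with diazoxide (0.13 ± 0.31, adjusted p = 0.879), and Ins2 at 70669 and 47233 CPM and then 62548 and 67960 CPM (0.18 ± 0.39, adjusted p = 0.866). Both were lower with diazoxide in mouse 1 and higher in mouse 2. Gcg (-0.06 ± 0.38, adjusted p = 0.960) and Sst (-0.30 ± 0.21, adjusted p = 0.494) were not called either. Of 34 genes for hormones, processing enzymes and granule proteins G6pc2 and Scg3 fell. G6pc2, the islet glucose-6-phosphatase that opposes glucokinase, went from 1798 and 1060 CPM to 223 and 332 CPM (-2.26 ± 0.32, adjusted p = 0.00578), and Scg3, a granin, from 1765 and 1068 CPM to 522 and 650 CPM (-1.21 ± 0.25, adjusted p = 0.0285). Pcsk1, a proinsulin convertase, was at 413 and 152 CPM and then at 109 and 108 CPM and was not called (-1.14 ± 0.30, adjusted p = 0.0683), and Vgf was at 0.01 ± 0.21 on the log2 scale. There were 0, 1, 1 and 6 members called with a library left out. Without the 11G+D library of mouse 1 Scg3 was at -0.80, not called, and G6pc2 at -1.66, and without the 11G library of mouse 1 G6pc2 was at -2.07 and not called.

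Of 50 genes of the exocytosis machinery 5 fell and none rose (11 lower and 2 higher at an unadjusted p below 0.05, 6 and 0 called by DESeq2). Vamp4, a vesicle SNARE of endosomes and the trans-Golgi, fell from 171 and 106 CPM to 48.5 and 35.5 CPM (-1.70 ± 0.14, adjusted p = 0.000519). Vamp2, the vesicle SNARE of insulin granules, fell from 331 and 264 CPM to 176 and 157 CPM (-0.83 ± 0.14, adjusted p = 0.0138). Syt4 and Syt5, of the synaptotagmin family, fell by 1.01 and 0.88 on the log2 scale and Unc13a, a priming factor, by 0.72. In each of these 5 both diazoxide libraries were below both at 11G. Their selection as genes called lower favours this, and the share of such genes over all genes tested is not given here. Vamp4 alone kept its call in all 4 fits, 1, 1, 1 and 8 members being called, and Syt4 was at -0.64 without the 11G+D library of mouse 1. Of 65 secreted peptides and growth factors Wnt4, a signalling ligand, was called. It rose from 58.7 and 78.2 CPM to 182 and 258 CPM (1.68 ± 0.21, adjusted p = 0.00301), and it was not called without the 11G library of mouse 1 (1.64). Bdnf was at 7.21 and 4.81 CPM and then at 1.63 and 2.83 CPM (-1.43 ± 0.37, adjusted p = 0.0648).

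Of 42 β-cell transcription factors 3 rose and 4 fell. Rfx6, which islet development and insulin secretion need, rose from 77.5 and 56.9 CPM to 258 and 233 CPM, or 3.73-fold (1.90 ± 0.24, adjusted p = 0.00378). Ldb1, a cofactor of Isl1, rose from 116 and 119 CPM to 308 and 226 CPM (1.18 ± 0.19, adjusted p = 0.00894) and Mlxipl, the glucose-responsive factor ChREBP, from 155 and 134 CPM to 264 and 231 CPM (0.78 ± 0.18, adjusted p = 0.0481). Vdr, the vitamin D receptor, fell from 217 and 186 CPM to 80.5 and 89.0 CPM (-1.24 ± 0.17, adjusted p = 0.00530), Prox1 fell by 1.25, Bach2 by 1.41 and Glis3 by 0.58. Mafa, a regulator of insulin genes, was at 43.6 and 31.7 CPM and then at 71.5 and 143 CPM and was not called (1.62 ± 0.44, adjusted p = 0.0746), its change being 0.71 in mouse 1 and 2.17 in mouse 2. With a library left out 0, 6, 2 and 7 members were called, so that none passed without the 11G library of mouse 1, where Rfx6 was at 1.80. Prox1 was at -0.80 and not called without the 11G+D library of mouse 1. In insulin and prolactin signalling Prlr, the prolactin receptor, fell from 157 and 73.6 CPM to 38.4 and 26.7 CPM (-1.73 ± 0.24, adjusted p = 0.00578) and Irs2, the insulin receptor substrate, from 128 and 57.8 CPM to 39.0 and 27.0 CPM (-1.38 ± 0.25, adjusted p = 0.0183). They were the called genes among 39, and neither was called without either 11G library, Irs2 being at -0.97 and not called without the 11G+D library of mouse 1 as well.

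Genes that answer to glucose metabolism did not all fall. Of 33 genes for ChREBP, its targets, lipogenesis and the pentose phosphate pathway 4 rose and 1 fell. Txnip, a thioredoxin-binding arrestin and ChREBP target, rose from 552 and 235 CPM to 1549 and 875 CPM, or 3.16-fold (1.66 ± 0.35, adjusted p = 0.0324). Pklr, a pyruvate kinase, rose by 1.40 on the log2 scale and Rpia, of the pentose phosphate pathway, by 1.01, and Elovl6, a fatty acid elongase, fell by 0.94. With a library left out 0, 1, 0 and 6 members were called, Txnip lying between 1.26 and 2.16 and passing only without the 11G+D library of mouse 2, and Elovl6 at -0.62 without the 11G library of mouse 1. Of 43 genes of glucose transport and glycolysis Slc37a4, the glucose-6-phosphate transporter of the ER, rose from 27.2 and 30.1 CPM to 73.8 and 58.2 CPM (1.20 ± 0.17, adjusted p = 0.00547). Pdk1 and Pdk2, kinases that inhibit pyruvate dehydrogenase, rose by 1.02 and 0.83 and Eno2, an enolase, fell by 0.81, with 0, 3, 1 and 3 members called when a library was left out. Of 32 genes of sterol synthesis Msmo1, Fdps and Fdft1 fell by 0.94, 0.78 and 0.78, and the list's median log2 change was -0.09. None of the 3 was called in the first 3 fits.

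Of 39 genes of the amino acid response through ATF4, 27 were lower in both mice and 3 were called lower, Nupr1 (508 and 606 CPM, then 261 and 307 CPM), the proline enzyme gene Pycr1 and the glutathione enzyme gene Chac1, with log2 changes of -0.97, -0.85 and -0.77; 0, 1, 0 and 5 members were called with a library left out. Of 36 ER chaperone and unfolded protein response genes 26 were lower in both mice, the median log2 change was -0.22 and none was called, although 8 had an unadjusted p below 0.05, DESeq2 called 3 and 7 passed without the 11G+D library of mouse 2. Of 30 heat shock genes Hspa4l fell by 1.26, and without the 11G library of mouse 1 it was at -1.19 and not called. Over all genes tested 32.3% were lower and 31.9% higher in both mice, and 2.46% were called lower and 1.33% higher. Of 81 cytosolic ribosomal protein genes 73 were higher in both mice with a median log2 change of 0.27, and of 12 mitochondrially encoded genes 11 were higher in both with a median of 0.41. No gene of either list was called by edgeR, with 0 ribosomal protein genes and 1 mitochondrial gene at an unadjusted p below 0.05 and 0 and 1 called by DESeq2, and 4 ribosomal protein genes passed without the 11G+D library of mouse 2. Of 35 cell cycle genes Cdkn1a, the p21 inhibitor, fell from 404 and 333 CPM to 153 and 193 CPM (-1.10 ± 0.21, adjusted p = 0.0234), and it was not called without either library of mouse 1 (-0.81 and -0.98).

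Of 25 clock genes 4 fell and 2 rose. Npas2, a partner of Bmal1, fell from 41.5 and 28.7 CPM to 9.02 and 10.8 CPM (-1.79 ± 0.23, adjusted p = 0.00378), and Per2 fell by 0.94 beside Per1 and Nfil3. Dbp, a clock output factor, rose from 23.9 and 32.0 CPM to 47.5 and 61.0 CPM (0.96 ± 0.14, adjusted p = 0.00701). The calls numbered 0, 3, 3 and 7 with a library left out. Of 42 cytokine and NF-kB genes Tnfrsf11b, a decoy receptor, fell by 1.71 on the log2 scale. Csf3, Il6, Cxcl1 and Cxcl10 rose by 1.04, 0.84, 0.71 and 0.64, the Cxcl1 levels of the groups overlapping (94.3 and 191 CPM, then 190 and 253 CPM). In the fits with a library left out 0, 1, 1 and 8 were called. Igkc and Ighm, immunoglobulin genes of plasma and B cells, were the called members of the 18 macrophage and immune markers. They had 2 and 1 and 6 and 0 counts at 11G and 35 and 5 and 61 and 5 with diazoxide, ratios of 14.6 (exact 95% interval 4.66 to 74.0) and 12.1 (5.26 to 34.1) that come mostly from mouse 1. The intervals cover counting error only and do not allow for the choice of these genes from the same libraries. Igkc was at 5.08 and 1.44 CPM at 2G and 1.84 and 0.295 CPM with diazoxide. Ighm was at 9.23 and 2.91 CPM at 2G and 3.20 and 0.295 CPM with diazoxide. Related immunoglobulin genes share sequence, so their counts are uncertain, and both lost their calls in 3 fits, Ighm being at 6.45 without the 11G library of mouse 1 and 2.11 without the 11G+D library of that mouse.

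By level in FPKM, 17 genes fell and 3 rose of 528 with a mean of at least 100 over the 4 libraries (3.79%). The most abundant that fell were the metallothioneins Mt1 and Mt2, zinc and copper binding proteins. Mt1 stood at 3358 and 3109 FPKM at 11G and 726 and 1347 FPKM with diazoxide (-1.71 ± 0.27, adjusted p = 0.00971), and Mt2 at 2210.4 and 2690 FPKM and then 474 and 1074 FPKM (-1.78 ± 0.26, adjusted p = 0.00707). The 2 genes are close relatives, so some reads may be shared, and neither was called without the 11G library of mouse 1 (-1.37 and -1.47). Defb1, a defensin, fell by 1.43 and Sat1, a polyamine acetyltransferase, by 1.12 on the log2 scale, and without the 11G library of mouse 1 Defb1 was at -1.30 and Sat1 at -0.67, neither called. Among the most abundant that rose were Ewsr1, Hnrnpdl and Hnrnph1, RNA-binding proteins, by 0.66, 0.88 and 0.74, Ypel3 by 1.32, Ccdc12 by 0.66, Dcaf8 by 0.61 and Maf1, a repressor of RNA polymerase III, by 0.66. Of these 7 Ypel3 lost its call in 1 fit and the others in 3 or 4.

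Among the largest increases Aqp4, a water channel, rose from 25.8 and 14.3 CPM to 101 and 56.0 CPM, or 3.93-fold (1.97 ± 0.22, adjusted p = 0.00188), by 1.97 in each mouse. Ttc25 rose from 3.68 and 3.03 CPM to 26.1 and 11.3 CPM (2.38 ± 0.30, adjusted p = 0.00350), Sh2d5 from 34.8 and 31.4 CPM to 197 and 83.0 CPM, and Cyp4f39, of the cytochrome P450 family, from 2.99 and 3.87 CPM to 12.5 and 17.2 CPM. In all 4 genes the groups were apart, which their selection as called genes favours. Racgap1, a GTPase activator of cell division, rose by 1.74, Acpp, an acid phosphatase, by 1.79, Nmb, the peptide neuromedin B, by 1.88, Oas1c by 1.69 and Aacs by 1.52. Tcp10b, of a gene family whose copies may share reads, rose by 2.97 and Usp29 by 2.65, both from under 2 CPM. Without 1 library Sh2d5 was at 1.19 (11G+D of mouse 1), Usp29 at 1.43 and not called (11G+D of mouse 2), Ttc25 at 2.06 and Racgap1 at 1.47 and not called (11G of mouse 1); Acpp, Oas1c, Usp29 and Nmb lost their calls in 3, 3, 3 and 4 fits. Sh2d5, Cyp4f39 and Tcp10b were not called without either 11G library (2.06 and 2.04, 1.90 and 2.34, 3.15 and 2.75).

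The light experiment shares no library or mouse with these 4. There 128 of 15171 genes (0.844%) were called, 91 higher (0.600%) and 37 lower (0.244%). Of the 396 genes lower with diazoxide 392 were tested under light, and 8 were called higher and 0 lower. These were Npas4, Fosb, Fos, Nr4a1, Csrnp1, Gem, Rasd1 and Zfp36, 2.04% of the genes lower with diazoxide and 8.79% of those higher under light. Of 209 tested genes higher with diazoxide 4 were called lower under light and none higher: Adora2b, Fam84a, Ighm and Igkc, 1.91% of one list and 10.8% of the other. With diazoxide Fam84a was near the threshold (edgeR adjusted p = 0.0494) and lay between 0.61 and 1.30 with a library left out. Ighm and Igkc had the few counts at 11G given above. Npas4 rose by 2.48 on the log2 scale under light, Fos by 2.32 and Nr4a1 by 1.56. Fosb rose by 3.60, with 1.93 in mouse 1 and 5.69 in mouse 2. Adora2b fell by 1.07 (-0.39 in mouse 1 and -1.79 in mouse 2) and Fam84a by 0.94 (-0.40 and -1.50). Egr1 rose by 2.38 under light (adjusted p = 0.000346) and was not called with diazoxide, but the 2 changes were not tested against each other. Lbh was at -0.04 and Neat1 at -1.18 under light, neither called. Neat1 went from 753 to 997 CPM in mouse 1 and from 1225 to 180 CPM in mouse 2, so its mean joins opposite directions and comes from mouse 2. Over all 392 the median change under light was 0.03, over the 209 it was 0.12, and over all genes tested it was 0.01. Higher under light were 54.1% of the 392 and 62.7% of the 209, beside 50.7% of all genes tested in both. In both mice 39.7% of the 209 were higher and 17.7% lower under light, beside 29.0% and 28.0% of all genes. The median change of the 209 under light was 0.17 in mouse 1 and 0.03 in mouse 2. Over all genes tested in both it was 0.003 and 0.006. Whether the 209 differ from all genes under light was not tested. The number of genes called in opposite directions was 12, and with a library of 11G or 11G+D left out it lay between 3 and 15. With all 12 libraries in 1 fit light had 6 calls and 1 gene was opposite. The fits without a light experiment library also held the wild-type libraries, and their light calls, set against the diazoxide calls above, gave 3 opposite genes without either library of mouse 1 and 0 without either of mouse 2, so that the form of the fit and the library changed together. In the fit of the 4 light experiment libraries alone but without the block edgeR called 0 genes under light (654 at an unadjusted p below 0.05, DESeq2 with the block 86), 0 of the 12 remaining. Genes called in the same direction with diazoxide and under light in these other fits are not reported here.

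**Figure D4:**
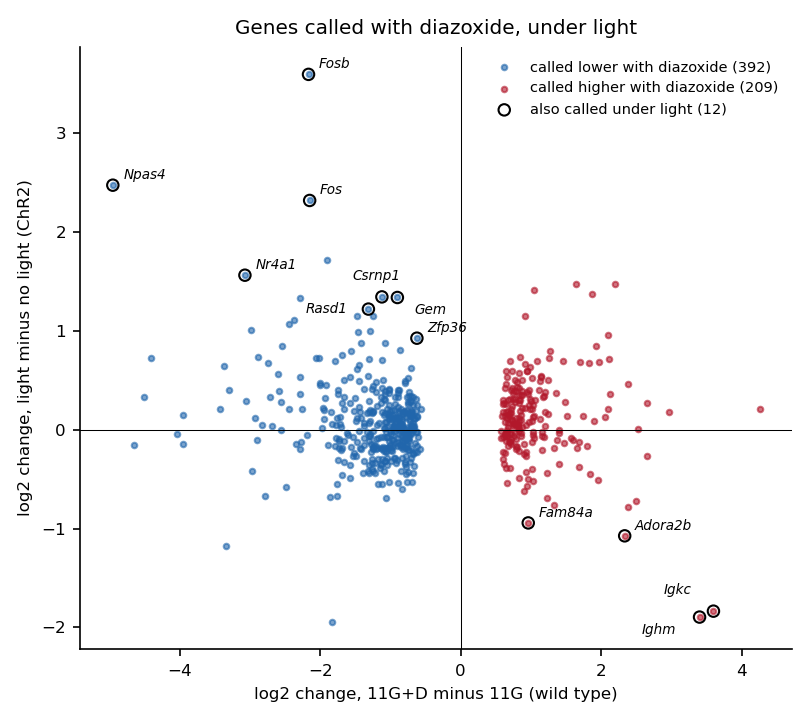
Log2 change with diazoxide in wild-type islets on the x axis and under light in channelrhodopsin-2 islets on the y axis, for the 392 genes called lower and 209 called higher with diazoxide that were tested under light; rings mark the 12 also called under light. The ringed genes all lie at the upper left or the lower right, and most others lie close to the horizontal line at 0.

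Levels with diazoxide were set beside those at 2G and with FK506 (the comparisons share the 11G+D libraries, so that their calls are not independent). Against 2G 840 genes were called (5.22%), 469 higher with diazoxide (2.92%) and 371 lower (2.31%), and against FK506 188 (1.17%), 62 higher (0.385%) and 126 lower (0.783%). Several genes that fell ended near 2G. Npas4 was at 1.28 and 1.74 CPM at 2G, Lbh at 64.4 and 60.3 CPM and Nr4a1 at 20.8 and 33.0 CPM, and none of these differed from diazoxide by the test (log2 changes of 0.55, -0.00 and 0.21). Others ended below 2G. Neat1 was at 1445 and 1219 CPM at 2G (-1.78 ± 0.21 for diazoxide against 2G, adjusted p = 0.00406), Dusp4 at 137 and 96.0 CPM (-1.53, adjusted p = 0.00214), Rasd2 at 54.0 and 46.0 CPM (-1.50), Mt1 at 2475 and 2731 CPM (-2.23, adjusted p = 0.00484), Mt2 at 2107 and 2760 CPM (-2.56) and Plk3 at 42.3 and 41.7 CPM (-1.69). Of the genes that rose Txnip was at 118 and 179 CPM at 2G and Aqp4 at 10.6 and 4.57 CPM, so that both were higher with diazoxide than at 2G (2.90 and 3.41), whereas Adora2b was at 99.6 and 72.2 CPM and did not differ by the test (-0.71, adjusted p = 0.0926). The 2G islets may also differ in incubation, which cannot be told apart from glucose.

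FK506 left a different set of levels. Lbh was at 110 and 59.7 CPM with FK506, Nr4a2 at 16.2 and 11.8 CPM, Rgs2 at 23.6 and 15.3 CPM and Megf9 at 117 and 54.8 CPM, none differing from diazoxide by the test (log2 changes of -0.41, -0.00, -0.32 and 0.03 for diazoxide against FK506). Npas4 was at 25.6 and 41.0 CPM with FK506, Neat1 at 2852 and 3191 CPM, Dusp4 at 120 and 72.1 CPM, Rasd2 at 62.2 and 55.5 CPM and Vamp4 at 111 and 71.3 CPM. All 5 were lower with diazoxide than with FK506, with log2 changes of -3.89, -2.97, -1.23, -1.74 and -1.10 (adjusted p of 0.0009, 0.0009, 0.00879, 0.00143 and 0.00957). Txnip at 300 and 184 CPM, Aqp4 at 18.01 and 15.6 CPM and Rfx6 at 118 and 85.9 CPM were higher with diazoxide than with FK506, by 2.31, 2.16 and 1.30 (adjusted p of 0.0174, 0.00465 and 0.0347). Adora2b at 32.5 and 18.7 CPM was not called (1.05, adjusted p = 0.0585). Without the mouse as a block 5 genes were called against FK506, 1 higher with diazoxide and 4 lower. Against 2G that setting called 10 genes, 5 higher and 5 lower. How far the differences of single genes from FK506 or 2G rest on 1 library was not tested.

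**Figure D5:**
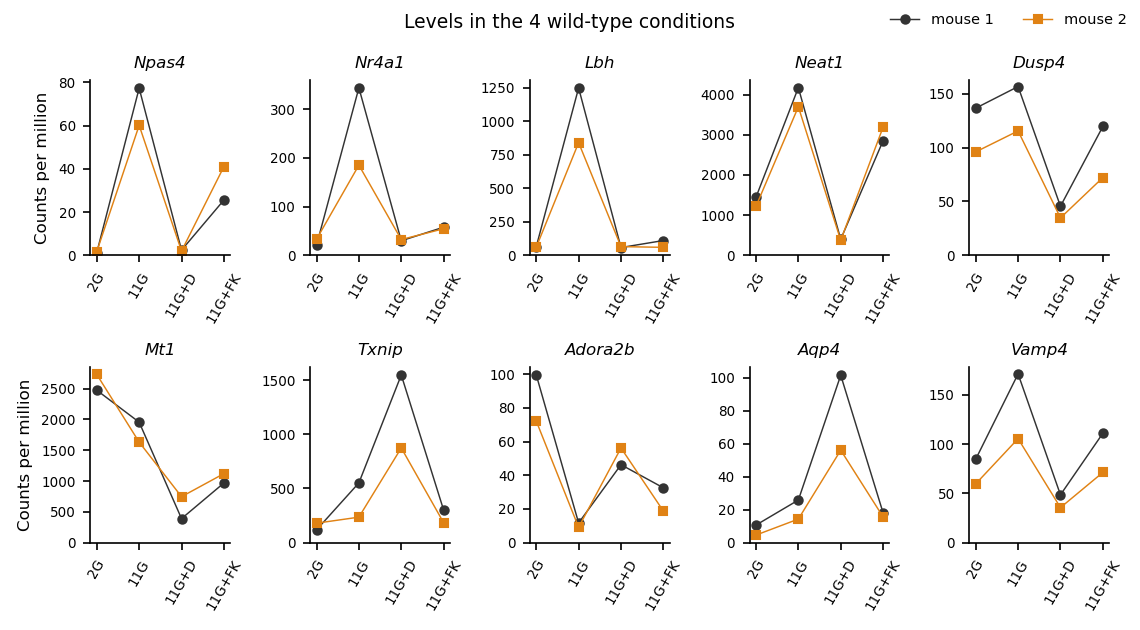
CPM of 10 named genes in wild-type islets at 2G, 11G, 11G+D and 11G+FK, 1 line per mouse, each y axis starting at 0. Npas4, Nr4a1 and Lbh return to about their 2G level with diazoxide, Neat1, Dusp4 and Mt1 lie below it, and Txnip and Aqp4 are highest with diazoxide.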

How the data were processed

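Total RNA of isolated mouse islets was sequenced in 12 libraries, and the authors deposited 8 tables, each setting 2 libraries of 1 mouse side by side. Per the file headers, the tables hold for every gene a raw read count and an FPKM value of each library. They also hold the authors' normalized counts (a signal scaled per table), log2 fold change and p-value, raw and adjusted. The deposited log2 fold change and p-value columns and the normalized signal were not used, since each compares 1 library with 1 library. Collagenase was used to free the islets, and an outside provider sequenced them, per the labels' protocols. Not given in the sources used here are the aligner, the counting tool, the genome build and whether strand was used. Gene names come from the tables.

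The raw counts of the tables were joined for 24503 genes, a gene absent from a table counting as 0. Libraries that stand in more than 1 table differed at 0 genes. The 8 wild-type libraries were tested in 1 fit with edgeR 4.0.16 (R 4.3.3), so that the groups shared 1 estimate of the spread: quasi-likelihood test, two-sided, TMM normalization, filterByExpr (minimum count 10, minimum total 15), the mouse number as a block, 16087 genes, 3 residual degrees of freedom and a biological coefficient of variation of 16.2%. The 4 channelrhodopsin-2 libraries had their own fit (15171 genes, 1 residual degree of freedom). Benjamini-Hochberg adjustment ran over all genes tested and 0.05 was the threshold. Standard errors were computed as the log2 change divided by the square root of F. CPM uses TMM-scaled library sizes, and log2 changes per mouse use log2 CPM with a prior count of 1. The mouse number pairs libraries because the labels give 1 mouse under each condition. Same-mouse deviations from the group means had correlations across genes of 0.145 to 0.456 (wild type) and 0.503 (channelrhodopsin-2). The lowest, 0.145, was that of 11G with 11G+D. The fit was tested on simulated data.

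The 33 gene lists, the members and the rule for named genes were chosen with earlier results of these data known. The rule took, of called genes of the same direction in both mice, the 15 largest decreases and increases with a mean of at least 1 FPKM, leaving out unnamed gene models (Gm, Rik and accession names) and pseudogenes, the 10 most abundant each way, up to 6 called members of each list and a fixed set of 24 genes. Another 20 genes were named after their values were seen: Gem, Rasd1, Csrnp1, Zfp36, Fam84a, Aacs, Sgms2, Wnk4, Stk38l, Hspb6, Nup93, Bcl2l2, Plk3, Etv5, Rgs4, Adora2a, Gcgr, Glis3, Mafa and Pcsk1. Beside these, the gene models Gm5860 and 1700016P03Rik, which the rule leaves out, were also named after their values were seen. Other settings tried were DESeq2 1.42.0, dropping the block, RLE size factors, no low-count filter or one at 10 CPM in 2 libraries, fits of the 4 or of all 12 libraries, and leaving out single libraries. Some called members of the lists are not reported here.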

Additional observations from a re-analysis of the deposited data

How the results depend on the processing

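With each alternative applied to all genes, diazoxide against 11G gave 602 calls with RLE size factors, 546 with a filter at 10 CPM in 2 libraries, 667 with all 12 libraries in 1 fit, 423 with the 4 libraries alone and 900 with DESeq2. With no filter on low counts it gave 1085, and the same setting gave 1573 against 2G, 617 against FK506, 419 for light and 34 genes called in opposite directions with diazoxide and under light. Without the mouse block the counts were 59, 10, 5, 0 and 0 in that order (for light, edgeR's test without the block had 654 genes at an unadjusted p below 0.05). DESeq2 gave 481 against FK506. With all 12 libraries in 1 fit light had 6 calls and 1 gene was opposite, and the 10 CPM filter left 6 opposite. Leaving out 1 library gave 45 to 765 calls against 11G, 246 to 1140 against 2G, 3 to 486 against FK506, 0 to 29 for light, where all 12 libraries were fitted together, and 0 to 15 opposite; the cause of these differences was not tested. For light, the fits with a library left out held the other libraries of both experiments. Those settings for the opposite calls were added after the data were seen, and genes called in the same direction under them are not reported here. No named gene called with all libraries changed sign under any of these. Each group has 2 mice, so p-values rest on few residual degrees of freedom, and genes under 1 FPKM were called in 1.01% of cases against 5.37% between 10 and 100 FPKM.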
